A study of Mus musculus with 8 samples.

Results

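The mitochondrial carrier family (gene symbols Slc25a followed by a number, with the uncoupling proteins Ucp2 and Ucp3) was described in poly(A) RNA of mouse subcutaneous fat. Members were taken by symbol from the gene table of the series, leaving out the citrate, dicarboxylate, oxoglutarate and carnitine carriers Slc25a1, Slc25a10, Slc25a11 and Slc25a20. This gave 39 of the 18022 genes in the table. Of the 38 described, 32 passed the filter on low counts. The data comprised 8 libraries from 8 mice of strain C57BL/6J, described as back-crossed 4 times. There were 4 libraries labelled Pkd1(flox/flox), called WT1 to WT4 here, which carry the floxed alleles and no stated deletion. The other 4, KO1 to KO4, were labelled Pkd1adipo delta/delta, a deletion in adipocytes. The kinase deleted is protein kinase D1 (gene symbol Prkd1), written Pkd1 in the labels. The sources used here give no Cre driver, age, sex or diet.

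Mitochondrial carriers are small proteins of the inner mitochondrial membrane that move nucleotides, phosphate, amino acids, cofactors and protons between the matrix and the cytosol. Most share a fold made of a repeated unit and work by alternating access to either side of the membrane. In fat they link oxidative phosphorylation to the cytosol, feed precursors to lipid synthesis and, in the case of the brown fat uncoupling protein, let protons return to the matrix without making ATP. Ucp1 was not analysed here.

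Libraries held between 2617755 and 2873457 reads, and the 38 carriers took between 0.154% and 0.176% of them. All 9 adipocyte markers had reads in every library, with sums of 19627 to 24870 CPM (reads of a gene scaled to a common library size) in WT and 21527 to 23293 CPM in KO libraries. Prkd1 itself had 72 to 94 reads in WT and 71 to 108 in KO libraries, with a log2 fold change of 0.06 ± 0.15 (SE), so these whole-tissue counts did not check the labels. Markers of other tissues differed between libraries. The 20 skeletal muscle markers summed to 155 to 616 CPM in WT libraries and to 464 CPM in KO3, but to 3295, 1907 and 3407 CPM in KO1, KO2 and KO4. Of these, Mylpf, Pvalb, Myoz1 and Tcap had 0 reads in at least 1 library. The 9 liver markers summed to 1815 CPM in WT1, 1579 in WT4 and 996 in KO2, and to between 280.2 and 479 CPM in the other libraries. Fga and Ahsg had 0 reads in at least 1 library. Cyp2e1 took up a large part of the low sums, with means of 187 CPM in WT and 289.9 CPM in KO libraries. Its log2 fold change was 0.63, while the other 8 liver markers lay below 0. In whole tissue, fewer cells of a type and less RNA per cell cannot be told apart.

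In edgeR's quasi-likelihood test 0 of the 32 carriers tested had an adjusted p under 0.05, against 0% of all 14556 genes tested. At an unadjusted p under 0.05 there was 1 carrier, Ucp2, or 3.12% of those tested, where the share over all genes was 4.49% (2.71% higher and 1.77% lower in KO libraries). Without KO3, where 0.336% of all genes passed the adjusted threshold, 0 carriers did, and Slc25a4 and Ucp2 had an unadjusted p under 0.05 (4.76% of all genes). DESeq2 also passed 0 carriers at an adjusted p of 0.05, against 0.301% of all genes, and at an unadjusted p under 0.05 it had Ucp2 and Slc25a47 (3.69% of all genes). The 4 WT and 4 KO values overlapped for all 32 carriers, while they did not overlap for 2.92% of all genes (1.53% higher and 1.39% lower). On the log2 scale (KO over WT) 18 carriers lay above 0 and 14 below, with a median of 0.056 against 0.000 over all genes. The intervals are per gene, without adjustment, and hold only for this fit, which takes no account of muscle RNA. With the log2 muscle marker sum as a covariate, Slc25a42 (0.81) and Slc25a12 (-0.49) lay outside their intervals of -0.28 to 0.74 and -0.40 to 0.64. For 30 of 32 carriers the 95% interval of the log2 fold change lay inside a 2-fold change in either direction, and for 16 it lay inside a 1.5-fold change. These are 93.8% and 50% of the carriers, against 88.7% and 56.1% of all genes tested. The exceptions to the first were Slc25a13 and Slc25a47.

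**Figure D1:**
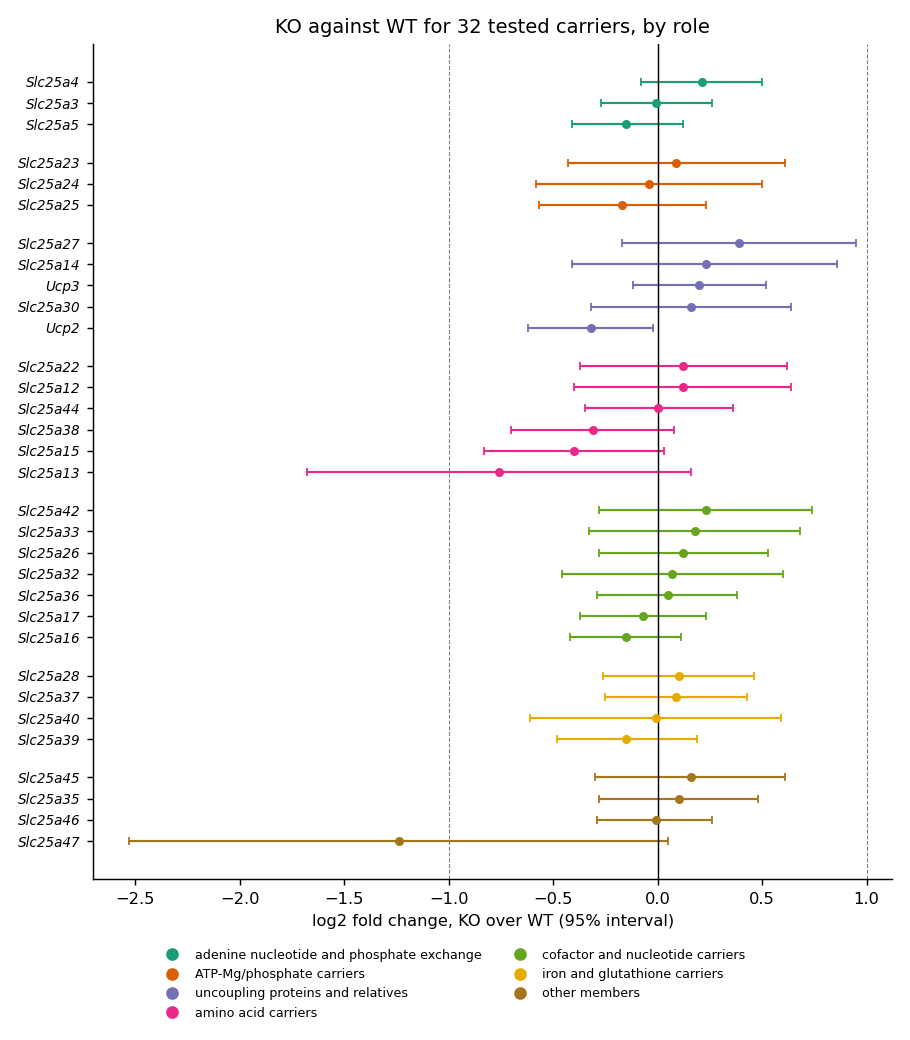
Log2 fold change of KO over WT libraries (x axis) with its 95% interval for 32 carriers, grouped and coloured by role; dashed lines mark a 2-fold change. The intervals of Slc25a13 and Slc25a47 reach past the lower dashed line, and only that of Ucp2 leaves out 0, before any adjustment.

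Levels were compared between genes as CPM per kilobase of exon, the exon lengths being those of GENCODE M21. Each length counts the merged exons of all transcripts of a gene, 1646 bases for Slc25a5, 2353 for Slc25a4 and 5550 for Slc25a3. The order depends on this choice. In CPM without length, WT means were 223 for Slc25a3, 209 for Slc25a4 and 169.8 for Slc25a5. Per kilobase, the carriers of adenine nucleotides stood highest. In WT libraries Slc25a5 had 103 ± 13.2 and Slc25a4 88.9 ± 5.49 CPM per kilobase (SD, n = 4), followed by the phosphate carrier Slc25a3 at 40.1 ± 4.78. These were followed by Slc25a39 at 29.2 ± 4.97, Slc25a44 at 20.2 ± 3.72 and Ucp2 at 19.4 ± 1.06. The top 5 made up 60.1% of the summed level of the 38 carriers. Of the 37 neighbouring pairs in this order, 2 had WT ranges that did not overlap, Slc25a4 above Slc25a3 and Slc25a3 above Slc25a39. In another 5 pairs, such as Slc25a5 over Slc25a4 and Slc25a39 over Slc25a44, the first gene was higher in each of the 4 WT libraries although the ranges overlapped. At the low end, Slc25a18, Slc25a21, Slc25a29, Slc25a34, Slc25a43 and Slc25a48 had between 1 and 19 reads in a library and were not tested. Of these, Slc25a18, a glutamate carrier, was covered by 3, 1, 6 and 5 reads in the WT and by 12, 7, 7 and 5 in the KO libraries, each in order. Slc25a48 was covered by 5, 1, 1 and 3 reads in the WT and by 5, 11, 11 and 1 in the KO libraries. The authors' deposited table gives Slc25a48 a log2 fold change of 1.37 with an adjusted p of 0.348 and Slc25a18 one of 0.96 with an adjusted p of 0.83, and none of the 6 had an adjusted p under 0.05 there.

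**Figure D2:**
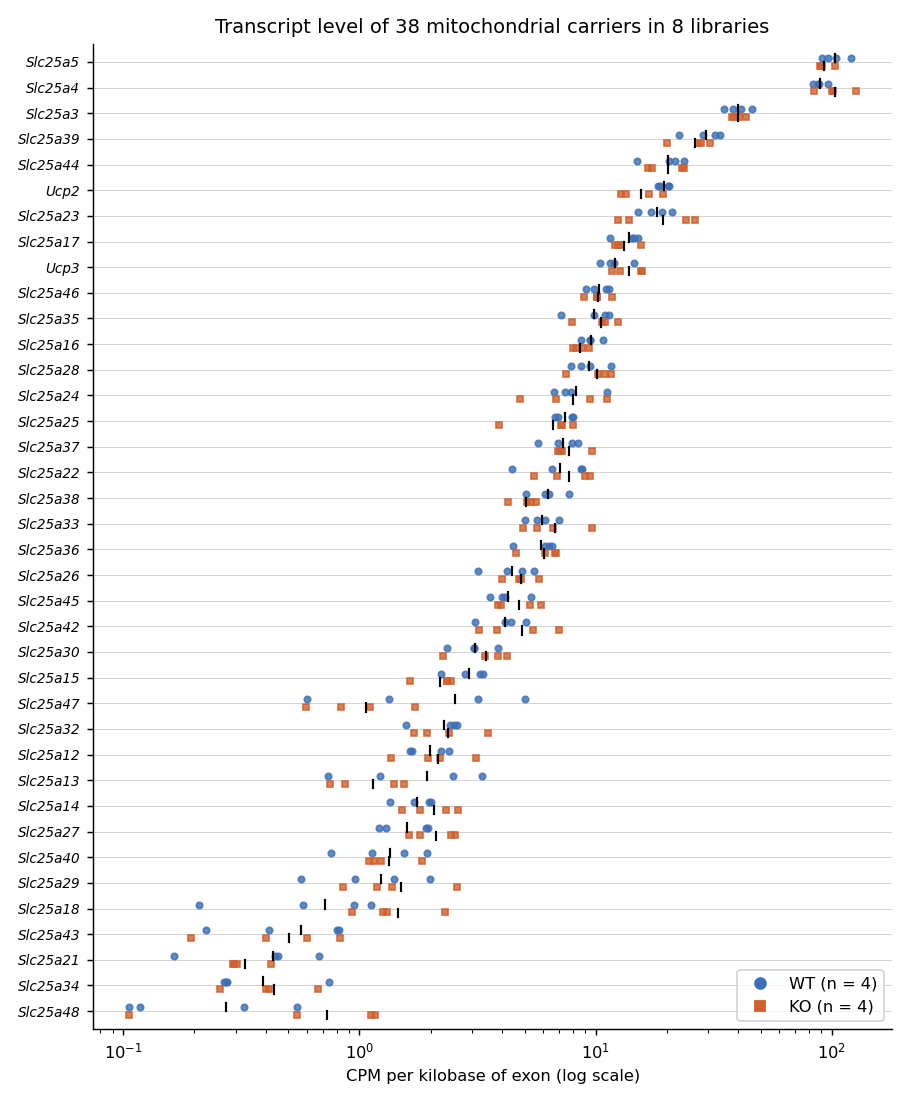
Level of each of the 38 carriers in CPM per kilobase of exon (log x axis), sorted by the WT mean; circles are WT and squares KO libraries, and black ticks are group means. Slc25a5, Slc25a4 and Slc25a3 stand at the top, and the spread among libraries widens toward the bottom.

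Adenine nucleotide carriers exchange cytosolic ADP for matrix ATP, and the phosphate carrier brings in the phosphate that ATP synthase needs. Slc25a4 encodes ANT1, the form that dominates in skeletal muscle and heart. It stood at 206.3, 226.9, 207.3 and 195.9 CPM in WT1 to WT4 and at 297.6, 235.1, 198.4 and 237.8 CPM in KO1 to KO4. The highest values fell in KO1, KO4 and KO2, where muscle marker sums were 3295, 3407 and 1907 CPM, while KO3 lay inside the WT range. Slc25a4 was highest in KO1 and the muscle sum in KO4. Its log2 fold change was 0.21 with a 95% interval from -0.08 to 0.50 (edgeR adjusted p = 0.998; exact two-sided permutation p = 0.171, where 4 against 4 can reach 0.0286). With the log2 muscle marker sum as a covariate the value turned to -0.07, and with KO1, KO2 and KO4 left out to -0.08. Without KO1 it was 0.10. The covariate is partly confounded with the label, as the sums were high in KO1, KO2 and KO4 only. The part of muscle RNA in the Slc25a4 value was not tested. Slc25a5 encodes ANT2, the form of most other tissues. It stood at 149.8, 199, 172 and 158 CPM in WT1 to WT4 and at 149, 146, 169 and 148 CPM in KO1 to KO4. WT2 was highest and the groups overlapped, with a log2 fold change of -0.15 and an interval from -0.41 to 0.12. It was -0.06 without WT2. In GENCODE M21, 33.8% of the 50-base words of Slc25a5 transcripts also occur in transcripts of 9 other genes, so reads of this gene could have been split or shared, and its value is uncertain. Slc25a3 stood at 212, 256, 193 and 229 CPM in WT1 to WT4 and at 225, 209, 240.0 and 213 CPM in KO1 to KO4. The group means lay close together, 223 ± 26.6 CPM in WT and 222 ± 14.1 CPM in KO libraries (SD, n = 4), with an interval from -0.27 to 0.26.

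The promoters of both adenine nucleotide carriers are shown because the balance of these forms differed between libraries. The sequences come from RefSeq (GRCm38.p6) and run from 250 bases before to 50 bases after the annotated gene start. Slc25a4 lies at chr8:46211013-46211312 on the minus strand, and Slc25a5 at chrX:36795347-36795646 on the plus strand. Capitals mark TATAA on the gene's strand, and CCAAT and GGGCGG on either strand; no 2 matches overlapped.
Slc25a4: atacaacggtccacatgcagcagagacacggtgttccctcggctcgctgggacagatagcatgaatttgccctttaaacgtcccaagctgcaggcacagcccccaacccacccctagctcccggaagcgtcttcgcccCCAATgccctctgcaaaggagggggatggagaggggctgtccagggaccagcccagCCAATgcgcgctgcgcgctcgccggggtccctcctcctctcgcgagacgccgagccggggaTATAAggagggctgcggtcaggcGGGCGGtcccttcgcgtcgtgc
Slc25a5: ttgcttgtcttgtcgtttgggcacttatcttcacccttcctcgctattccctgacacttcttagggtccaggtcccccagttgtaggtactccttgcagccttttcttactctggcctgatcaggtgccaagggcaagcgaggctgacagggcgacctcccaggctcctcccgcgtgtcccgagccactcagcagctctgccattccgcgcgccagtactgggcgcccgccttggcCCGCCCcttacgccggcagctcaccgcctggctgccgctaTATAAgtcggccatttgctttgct
Each promoter held 1 TATAA and 1 GGGCGG match, the TATAA starting 5 bases after the annotated gene start in Slc25a4 and 26 bases after it in Slc25a5, and that of Slc25a4 also held 2 CCAAT matches against 0 in that of Slc25a5. RefSeq promoters were matched for 31 of the 38 carriers, 40 promoters in all. TATAA stood in 3 of these 40, those of Slc25a4, Slc25a5 and Slc25a21, and in 17.5% of all 32851 promoters of the same length. GGGCGG, the GC box, stood in 32 of 40 carrier promoters, or 80%, against 35.7% of all promoters, and CCAAT in 18 of 40, or 45.0%, against 37.4%. The median GC content was 58.5% in carrier promoters and 52.7% in all. AAGGTCA, a site of estrogen-related receptors, which regulate mitochondrial genes, stood in 1 carrier promoter (Slc25a34) and in 4.7% of all. These matches describe the letters in the windows only.

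The uncoupling proteins Ucp2 and Ucp3 are relatives of the brown fat protein Ucp1. Ucp2 is expressed widely, including in immune cells, and Ucp3 mainly in skeletal muscle and brown fat. Ucp2 had the smallest p of the tested carriers in edgeR's quasi-likelihood test. In the authors' deposited table, where Slc25a47 had the smallest unadjusted p of 0.000341, Ucp2 had 0.117. It stood at 131, 143, 141 and 128 CPM in WT1 to WT4 and at 135, 93.7, 117 and 89.5 CPM in KO1 to KO4. KO2, KO3 and KO4 lay below every WT library and KO1 lay inside the WT range. The means were 136 ± 7.40 CPM in WT and 109 ± 21.4 CPM in KO libraries (SD, n = 4). The log2 fold change was -0.32 ± 0.14 (SE), and edgeR gave an unadjusted p of 0.0386 and an adjusted p of 0.998 (exact two-sided permutation p = 0.0857). The value was -0.31 with the muscle covariate, and ranged from -0.44 without KO1 to -0.24 without KO4. The summed lymphoid markers, of which 7 of 7 were in the table, stood at 44.9 to 61.1 CPM in WT and 36.4 to 47.1 CPM in KO libraries, with Ms4a1 at 0 reads in at least 1 library. Ptprc, a gene of all leukocytes, made up most of this sum, with means of 41.9 CPM in WT and 35.9 CPM in KO libraries, and the other 6 markers were under the count filter. The macrophage markers, 6 of 7 names in the table, had sums of 584 to 837 CPM in WT and 564 to 760.2 CPM in KO libraries and no marker at 0. The part of these cells in the Ucp2 value was not tested. Of the exon bases of Ucp2, 4.4% are shared with Dnajb13, and the library kit does not mark strand.

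Ucp3 lay on the other side of 0. It stood at 36.0, 37.4, 45.4 and 32.8 CPM in WT1 to WT4 and at 49.3, 39.8, 48.7 and 36.7 CPM in KO1 to KO4. The groups overlapped, with the highest values in KO1 and KO3, whose muscle marker sums were 3295 and 464 CPM. The log2 fold change was 0.20 with an interval from -0.12 to 0.52 (edgeR adjusted p = 0.998), and 0.19 with the muscle covariate. The part of muscle RNA in the Ucp3 value was not tested. The brown adipocyte markers, 5 of 6 in the table, were summed. Sums were 31.2 to 56.8 CPM in WT and 39.1 to 77.9 CPM in KO libraries, with KO3 highest. Elovl3 had 0 reads in at least 1 library. Means in WT and KO libraries were 12.6 and 19.4 CPM for Cpt1b, 11.5 and 12.8 for Ppargc1a and 17.3 and 17.4 for Cidea. They were 2.68 and 3.05 CPM for Cox7a1 and 1.74 and 1.07 for Elovl3. The part of brown adipocytes in the Ucp3 value was not tested. The relatives Slc25a14 and Slc25a27, known from brain, and Slc25a30, known from kidney, had log2 fold changes of 0.23 ± 0.29, 0.39 ± 0.26 and 0.16 ± 0.22 (SE). They held 8 to 18, 12 to 29 and 27 to 56 reads. Slc25a27 turned to -0.09 with the muscle covariate. Without KO2 the values were 0.09 for Slc25a14 and 0.04 for Slc25a30, and without KO4 they were 0.35 and 0.32. The brain and nerve marker sum was highest in KO1, at 555 CPM against 97.3 to 198 CPM in the other libraries. Slc25a14 and Slc25a27 were highest in KO2. The part of nerve RNA in the Slc25a14 and Slc25a27 values was not tested.

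The promoter of Ucp2 is printed because this gene had the smallest p of the tested carriers in edgeR's quasi-likelihood test. It lies at chr7:100493108-100493407 on the plus strand (RefSeq, GRCm38.p6), with the same marks as above.
Ucp2: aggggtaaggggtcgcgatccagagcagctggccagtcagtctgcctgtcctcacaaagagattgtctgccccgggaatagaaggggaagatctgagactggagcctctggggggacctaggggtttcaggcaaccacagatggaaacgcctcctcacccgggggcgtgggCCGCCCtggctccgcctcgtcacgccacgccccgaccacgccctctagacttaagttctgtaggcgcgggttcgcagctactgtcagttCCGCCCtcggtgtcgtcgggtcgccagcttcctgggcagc
It held 2 GGGCGG matches, 0 TATAA and 0 CCAAT matches.

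Within a library, the ratio of related carriers removes the scaling between libraries. Of 8 such ratios, 1 did not overlap between the labels, that of Ucp3 to Ucp2. Its log2 value was -1.87, -1.93, -1.64 and -1.96 in WT1 to WT4 and -1.46, -1.23, -1.26 and -1.29 in KO1 to KO4. Every KO library thus lay above every WT library, with means of -1.85 ± 0.15 and -1.31 ± 0.10 (SD, n = 4) and a difference of 0.54. With any 1 library left out, which was chosen after seeing the data, the difference was between 0.50 and 0.61. Its sign could not turn, since the groups did not overlap. Over all 496 ratios between the 32 tested carriers, 6, or 1.21%, did not overlap, and 4 of these 6 contained Ucp2: its ratios to Slc25a4, Ucp3, Slc25a44 and Slc25a45. The ratio of Slc25a4 to Slc25a5 had log2 values of 0.46, 0.19, 0.27 and 0.31 in WT1 to WT4 and of 1.0, 0.69, 0.23 and 0.68 in KO1 to KO4. It was highest in KO1, KO2 and KO4, which had the highest muscle marker sums, though in another order. KO3 lay inside the WT range. The part of muscle RNA in this ratio was not tested. The ratios are given as a description, without a test.

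**Figure D3:**
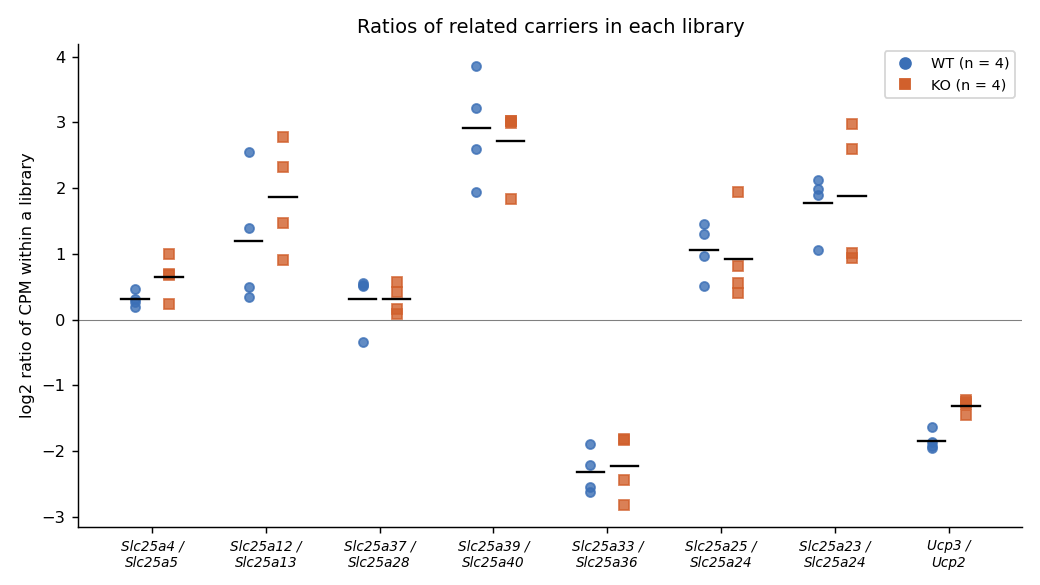
Log2 ratio of CPM of related carriers within each library (y axis) for 8 gene pairs (x axis); circles are WT and squares KO libraries, and black lines are group means. The groups overlap for every pair except Ucp3 to Ucp2, where the KO values lie between -1.46 and -1.23 and the WT values between -1.96 and -1.64.

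The ATP-Mg/phosphate carriers Slc25a23, Slc25a24 and Slc25a25 adjust the adenine nucleotide content of the matrix and bind calcium on their cytosolic side. Slc25a23 stood at 79.7, 111, 90.8 and 101 CPM in WT1 to WT4 and at 139.8, 73.5, 128 and 65.6 CPM in KO1 to KO4. Slc25a24 stood at 38.2, 25.5, 22.9 and 27 CPM in WT1 to WT4 and at 23.2, 38.4, 16.4 and 32.4 CPM in KO1 to KO4. Among the KO libraries, KO1 and KO3 had the most Slc25a23 and the least Slc25a24. For both genes KO1 lay above KO3 and KO2 above KO4. The log2 ratio of Slc25a23 to Slc25a24 ran from 0.93 in KO2 to 2.97 in KO3, a range of 2.03, while the group means were 1.77 ± 0.48 in WT and 1.88 ± 1.05 in KO libraries (SD, n = 4). The spread inside a label was thus far wider than the difference of 0.11 between the labels. Slc25a25 stood at 54.3, 62.9, 62.5 and 52.9 CPM in WT1 to WT4 and at 30.5, 56.3, 62.9 and 56.7 CPM in KO1 to KO4. KO1 was lowest, KO2 and KO4 lay inside the WT range and KO3 lay level with its top. The log2 fold changes were 0.09 ± 0.24 for Slc25a23, -0.04 ± 0.25 for Slc25a24 and -0.17 ± 0.19 for Slc25a25 (SE), which was 0.01 without KO1. Slc25a23 was 0.25 without KO4 and -0.10 without KO1, and Slc25a24 was 0.15 without KO3 and -0.24 without KO2. With the muscle covariate Slc25a23 moved to 0.41 and Slc25a24 to -0.55, and with KO1, KO2 and KO4 left out to 0.42 and -0.79.

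Amino acid carriers included 9 members, of which 6 were tested, 3 with positive and 3 with negative log2 fold changes. Slc25a12 (aralar) and Slc25a13 (citrin) exchange aspartate for glutamate in the malate-aspartate shuttle; the first is the form of muscle and brain and the second that of liver. Slc25a13 stood at 12.5, 2.79, 4.65 and 9.48 CPM in WT1 to WT4 and at 3.31, 5.84, 5.33 and 2.85 CPM in KO1 to KO4. WT1 and WT4, which had the highest liver marker sums, held its highest values, while WT2 and WT3 stood at 2.79 and 4.65 CPM, against 2.85 to 5.84 CPM in KO libraries. Its log2 fold change was -0.76 ± 0.43 (SE), with an interval from -1.68 to 0.16, on 7 to 34 reads, and -0.38 without WT1 (edgeR adjusted p = 0.998 over all libraries). It was -0.30 with the muscle covariate and -0.47 with KO1, KO2 and KO4 left out. The part of liver RNA in the Slc25a13 value was not tested. Slc25a12 stood at 17.6, 16.3, 12.2 and 12.0 CPM in WT1 to WT4 and at 22.8, 16.1, 9.96 and 14.3 CPM in KO1 to KO4. KO1 was highest and KO3 lowest of all 8, and the log2 fold change of 0.12 ± 0.24 (SE) turned to -0.49 with the muscle covariate. It was -0.11 without KO1 and 0.29 without KO3. KO1 also had the highest sum of brain and nerve markers (5 of 6 in the table, none at 0), 555 CPM against 97.3 to 198 CPM in the other libraries. The part of nerve RNA in this value was not tested.

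Slc25a15, which brings ornithine into the urea cycle of liver, had 16.3 ± 2.87 CPM in WT and 12.3 ± 2.10 CPM in KO libraries (SD, n = 4), a log2 fold change of -0.40 ± 0.20 (SE). Slc25a38, which imports glycine for haem synthesis, had 17.3 ± 2.94 and 14.0 ± 1.59 CPM, a log2 fold change of -0.31 ± 0.18, which was -0.20 without WT3 and -0.58 with the muscle covariate. Slc25a44, a carrier of branched-chain amino acids known from brown fat, had 72.2 ± 13.3 and 72.4 ± 13.6 CPM, with an interval of the log2 fold change from -0.35 to 0.36. Slc25a22, a glutamate carrier, had 0.12 ± 0.23 and ran from 26.4 CPM in WT1 to 56.6 CPM in KO1. Its value was -0.05 without WT1, 0.25 without KO2 and 0.48 with the muscle covariate. The oxodicarboxylate carrier Slc25a21 had 2 to 9 reads and the basic amino acid carrier Slc25a29 4 to 19, under the filter.

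Slc25a47, a carrier known almost only from liver, had the largest log2 fold change of the tested carriers. It stood at 15, 3.98, 1.79 and 9.48 CPM in WT1 to WT4 and at 3.31, 5.15, 2.49 and 1.78 CPM in KO1 to KO4. The order of its 3 highest libraries, WT1, WT4 and KO2, was that of the liver marker sums, and WT2 and WT3 lay inside the KO range. The log2 fold change was -1.24 ± 0.58 (SE), with an interval from -2.53 to 0.05, on 5 to 41 reads (edgeR adjusted p = 0.998; exact two-sided permutation p = 0.257), and -0.67 without WT1. In the authors' deposited table it was the 1 carrier of 38, or 2.63%, with an adjusted p under 0.05, which stood at 0.0163. Over all 18022 genes the share in the authors' deposited table was 2.42%, and 0.988% for lower values alone. The part of liver RNA in this value was not tested.
The promoter of Slc25a47 is given because this was the only carrier called in that table. It lies at chr12:108850879-108851178 on the plus strand (RefSeq, GRCm38.p6), with the same marks.
Slc25a47: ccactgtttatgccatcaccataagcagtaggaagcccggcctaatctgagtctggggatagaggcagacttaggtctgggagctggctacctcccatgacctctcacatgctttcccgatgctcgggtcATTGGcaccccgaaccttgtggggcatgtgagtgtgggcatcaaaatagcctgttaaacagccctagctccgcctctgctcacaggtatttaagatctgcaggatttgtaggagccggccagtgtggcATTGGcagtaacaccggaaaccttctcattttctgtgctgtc
It held 2 CCAAT matches, 0 GGGCGG matches and 7 CG pairs, against 25 CG pairs in the window of Slc25a4.

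**Figure D4:**
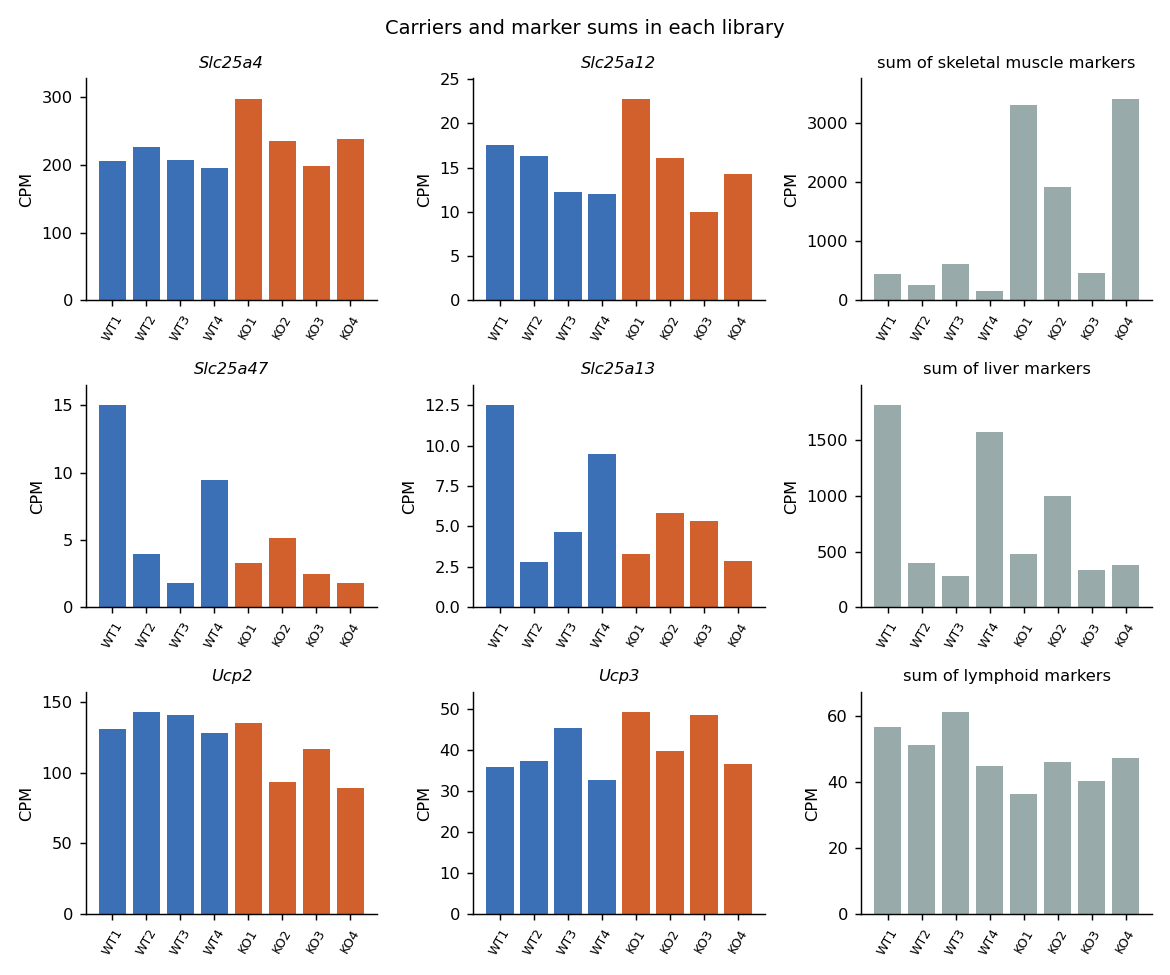
CPM in each of the 8 libraries (bars from 0) for Slc25a4 and Slc25a12 beside the summed skeletal muscle markers, Slc25a47 and Slc25a13 beside the summed liver markers, and Ucp2 and Ucp3 beside the summed lymphoid markers; blue bars are WT, orange KO, and grey bars marker sums. Slc25a47 and Slc25a13 are highest in WT1 and WT4, where liver markers reach 1815 and 1579 CPM, and Slc25a4 is highest in KO1, KO2 and KO4.

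Of the cofactor and nucleotide carriers, 7 were tested, 5 lying above 0 and 2 below, with a median log2 fold change of 0.07. Slc25a42, which carries coenzyme A into the matrix, ran from 18.4 CPM in WT1 to 42.0 CPM in KO3 and had 0.23 ± 0.24 (SE). Its value was -0.0021 without KO3 and 0.38 without KO4. It was 0.81 with the muscle covariate and 0.75 with KO1, KO2 and KO4 left out. In the edgeR fit with the covariate, Slc25a42 and not Ucp2 was the 1 carrier with an unadjusted p under 0.05. The share of all genes there was 3.1%. The pyrimidine nucleotide carriers Slc25a33 and Slc25a36 had 0.18 ± 0.23 and 0.05 ± 0.16; 14.9% of the exon bases of Slc25a33 overlap Gm13068, so its reads are uncertain. The S-adenosylmethionine carrier Slc25a26, the folate and FAD carrier Slc25a32 and the peroxisomal carrier Slc25a17 had 0.12 ± 0.19, 0.07 ± 0.25 and -0.07 ± 0.14. Slc25a16, a relative of a yeast carrier needed for matrix coenzyme A, had 46.0 ± 4.06 CPM in WT and 41.3 ± 2.84 CPM in KO libraries (SD, n = 4), a log2 fold change of -0.15 ± 0.12 (SE).

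The mitoferrins Slc25a37 and Slc25a28 import iron, the first mainly in red cell precursors. Slc25a37 stood at 41.8, 34.2, 50.8 and 47.8 CPM in WT1 to WT4 and at 42.7, 41.9, 58.0 and 43.5 CPM in KO1 to KO4. KO3 was highest, and the groups overlapped, with a log2 fold change of 0.09 ± 0.16 (SE) and an interval from -0.25 to 0.43. It was -0.03 without KO3 and -0.01 without WT2. The erythroid markers, 5 of 7 in the table and none at 0, summed to 622 to 1399 CPM in WT and 313 to 1034 CPM in KO libraries, with 861 CPM in KO3. Slc25a28 stood at 29.4, 43.4, 35.4 and 32.5 CPM in WT1 to WT4 and at 38.3, 28.1, 43.4 and 41.0 CPM in KO1 to KO4, a log2 fold change of 0.10 ± 0.17 (SE), which was 0.02 without WT1 and 0.22 without KO2. The log2 ratio of Slc25a37 to Slc25a28 was 0.31 ± 0.44 in WT and 0.31 ± 0.23 in KO libraries (SD, n = 4). Slc25a39, a glutathione carrier, stood at 62, 92.7, 78.3 and 88.6 CPM in WT1 to WT4 and at 74.7, 55.3, 83.9 and 76.7 CPM in KO1 to KO4, with KO2 lowest. It and the second glutathione carrier, Slc25a40, had log2 fold changes of -0.15 ± 0.16 and -0.01 ± 0.28 (SE). Slc25a39 was -0.04 without KO2 and -0.25 without WT1. The ratio of the former to the latter was highest in WT2, at 3.86 on the log2 scale, and lowest in KO2, at 1.84.

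Of the remaining members, Slc25a46 sits in the outer membrane and acts in mitochondrial shape; it had 56.1 ± 5.56 CPM in WT and 55.5 ± 6.28 CPM in KO libraries (SD, n = 4) and an interval of the log2 fold change from -0.29 to 0.26. Slc25a35 had 0.10 ± 0.18 (SE), and 31.3% of its exon bases overlap Rangrf, so reads in the overlap cannot be assigned without strand. Slc25a35 was 0.45 with the muscle covariate. Slc25a45 had 0.16 ± 0.21, which was 0.04 without KO1 and 0.28 without WT2. Slc25a34 and Slc25a43 held 2 to 5 and 1 to 4 reads.

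The median coefficient of variation among libraries of the same label was 17.8% for carriers and 16.9% over all genes tested. The highest value of a carrier fell in KO3 for 7 of 32, or 21.9%, where KO3 held the highest value of 11.1% of all genes tested. These 7 were Slc25a25, Slc25a26, Slc25a28, Slc25a35, Slc25a37, Slc25a42 and Slc25a44. KO1 and KO2 each held the highest value of 6, or 18.8%, against 15.1% and 12.4% of all genes. KO4 held the highest value of 3, or 9.38%, against 12.1%. WT1 to WT4 held it for 12.5%, 15.6%, 3.12% and 0% of carriers, against 13.0%, 19.0%, 9.12% and 8.07% of all genes. WT2 held the lowest value of 8, or 25%, against 18.4% of all genes, and KO4 of 6, or 18.8%, against 12.6%. The other libraries held the lowest value of 3.12% to 12.5% of carriers, against 8.18% to 13.6% of all genes.

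Partners of the carriers gave 0 genes with an adjusted and 0 with an unadjusted p under 0.05 by edgeR's quasi-likelihood test, against 0% and 4.49% of all genes. Carriers reach the inner membrane through the TOM and TIM22 complexes and their chaperones. Of 13 genes of this import route, 7 lay above 0 and 6 below, with a median log2 fold change of 0.06; Timm22, the channel, had -0.09 ± 0.26 and the receptor Tomm70a 0.06 ± 0.13 (SE). The 17 genes of ATP synthase and its regulators, which use the ADP and phosphate that the carriers deliver, had 6 positive and 11 negative values and a median of -0.06; Atp5b, the catalytic beta subunit, had -0.10 ± 0.15. The 15 inner membrane transporters outside the family had a median of 0.02. Among them, the pyruvate carrier subunits Mpc1 and Mpc2 had 0.21 ± 0.13 and -0.04 ± 0.11, and the calcium channel Mcu had 0.29 ± 0.17. Mtch1 and Mtch2, carrier relatives of the outer membrane, had -0.24 ± 0.13 and 0.08 ± 0.14.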

How the data were processed

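Poly(A) RNA of subcutaneous fat from 8 mice was sequenced with the NEBNext Ultra kit, per the labels' protocols, a kit that does not mark strand. FastQC, Bowtie2, edgeR and mm9 stand in the submitters' processing notes without versions; the sources used here do not say how reads were counted. Raw gene counts, not normalized, were deposited by the authors. Their second table, per the file headers, gives log2 fold changes, log2 mean CPM, p-values and adjusted p-values.

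Groups came from the titles and columns were matched by mouse label. Counts were fitted with edgeR 4.0.16 (R 4.3.3), TMM scaling, filterByExpr (14556 genes) and a robust quasi-likelihood F test, with Benjamini-Hochberg adjustment over all genes tested at 0.05. Standard errors were taken as the fold change on the log2 scale divided by the square root of F, and CPM are TMM-scaled. Exact permutation tests used log2(CPM + 0.5). Libraries held 2617755 to 2873457 reads, which limits members with few reads. Exon lengths, overlaps and 50-base words came from GENCODE M21, of another build than the files, so no gene coordinates are given; promoters are those of RefSeq (GRCm38.p6). Members and lists were chosen with earlier results of these data known. Of the members, 1 is not reported here, in the text, the counts or the figures, though it stayed in the fit over all genes. The others were all to be named; those given in full were the 6 with the highest mean CPM, any with an unadjusted p under 0.05, with groups apart or called by the authors, and a fixed list. Shared symbols were resolved to the gene with more reads, and list genes were also matched by Ensembl identifier. Brain and nerve markers were summed too: 5 of 6 were in the table, at 102 to 198 CPM in WT and 97.3 to 555 CPM in KO libraries. Alternatives were DESeq2 size factors, DESeq2 1.42.0, no count filter, the replicate number as a block, muscle markers as a covariate, each library left out, and KO1, KO2 and KO4 left out.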

Additional observations from a re-analysis of the deposited data

Results flagged for a closer look

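Among 64 groups of 4 values (32 carriers in WT and in KO libraries), 3 had a library whose gap to its nearest neighbour took up most of the group's range; chance alone marks about 1 in 20 groups. Slc25a5 stood at 169 CPM in KO3, with 146 to 149 CPM in the other KO libraries. Slc25a37 stood at 58.0 CPM in KO3, with 41.9 to 43.5 CPM in the others. Slc25a15 stood at 9.20 CPM in KO1, with 13.2 to 13.7 CPM in the others. In 2 of the 3 cases the library was KO3, the KO library whose muscle marker sum lay inside the WT range.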

How the results depend on the processing

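The number of carriers past an adjusted p of 0.05 was 0 in edgeR's quasi-likelihood test and in every alternative run, DESeq2 included. Over all genes that number was 51 with DESeq2 and from 0 to 50 with 1 library left out, the 50 being without KO3; it was 0 in the other alternatives. Carriers at an unadjusted p under 0.05 numbered 2 with DESeq2 (3.69% of all genes), 3 with KO1, KO2 and KO4 left out (3.86% of all genes), and from 0 (without WT1 or without KO4) to 2 (without KO3, WT2 or WT3) with 1 library left out. The shares of all genes were 4.44% without WT1, 5.08% without KO4, 4.76% without KO3, 4.2% without WT2 and 5.7% without WT3. The median log2 fold change of the carriers was 0.005 with the muscle covariate and ranged from -0.001 (without WT2) to 0.084 (without WT3) with 1 library left out.

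The sign of the log2 fold change turned in at least 1 alternative for 19 of 32 carriers and for 13 it did not. With the muscle covariate the values that turned were Slc25a4 at -0.07, Slc25a3 at 0.18, Slc25a25 at 0.07, Slc25a27 at -0.09, Slc25a12 at -0.49, Slc25a32 at -0.21, Slc25a33 at -0.01 and Slc25a39 at 0.08. With KO1, KO2 and KO4 left out, which leaves KO3 as the lone KO library, assumed to vary like the WT libraries, they were Slc25a4 at -0.08, Slc25a3 at 0.11, Slc25a25 at 0.11, Slc25a12 at -0.54, Slc25a32 at -0.43, Slc25a33 at -0.07 and Slc25a39 at 0.06. Slc25a44 turned to -0.0018 with DESeq2 and to -0.0034 with no count filter. The cause was not tested.

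With 1 library left out the ranges of the values that turned were -0.07 to 0.07 for Slc25a3, -0.10 to 0.25 for Slc25a23, -0.24 to 0.15 for Slc25a24, -0.28 to 0.01 for Slc25a25, -0.11 to 0.29 for Slc25a12, -0.05 to 0.25 for Slc25a22, -0.12 to 0.09 for Slc25a44 and -0.01 to 0.24 for Slc25a26. They were -0.18 to 0.20 for Slc25a32, -0.06 to 0.30 for Slc25a33, -0.06 to 0.16 for Slc25a36, -0.0021 to 0.38 for Slc25a42, -0.03 to 0.17 for Slc25a37, -0.21 to 0.21 for Slc25a40, -0.03 to 0.21 for Slc25a35 and -0.09 to 0.05 for Slc25a46.

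With the replicate number as a block, 0 carriers and 0 genes passed the adjusted threshold. In that edgeR fit 1 carrier of 32 had an unadjusted p under 0.05, where the share of all genes was 3.12%. The median was 0.033, and Slc25a40 turned to 0.01. Same-numbered libraries had correlations of -0.29 to -0.14 and 0 of 8 correlated best with their own number. The labels do not say that a number pairs mice, and such correlations cannot exclude it. Leaving out single libraries for the ratios was chosen after seeing the data; no library had 0 reads for these genes, and a pseudocount of 0.5 CPM moved none of the 8 differences by more than the spread between libraries. Depth limits the low members: 6 fell under the count filter with 1 to 19 reads.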

Other observations

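Carriers listed under older symbols lay outside the symbol rule, and their values were seen before they were chosen for mention. Slc25a51, the mitochondrial NAD carrier, is listed as Mcart1 (ENSMUSG00000045973). It stood at 134, 133, 144 and 131 CPM in WT1 to WT4 and at 152, 150.0, 148 and 151 CPM in KO1 to KO4, so that the groups did not overlap, as for 2.92% of all genes tested. The means were 135 ± 5.65 CPM in WT and 150.1 ± 1.80 CPM in KO libraries (SD, n = 4), with a log2 fold change of 0.15 ± 0.10 (SE) and a 95% interval from -0.08 to 0.37. By edgeR's quasi-likelihood test its adjusted p was 0.998. The log2 fold change was 0.09 with the muscle covariate. Slc25a53, listed as Mcart6, had 20 to 29 reads in 7 libraries and 51 in KO1.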
